A study of Mus musculus with 162 samples.

Results

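Livers (LIV) of mice whose food was taken away in the light period, 8 h or 12 h before they were killed, were compared with livers of mice that ate freely (0 h) or had been without food for 2 h. The libraries were chosen by the organ and the fasting time in their labels, which gave 6 fasted libraries (8 h and 12 h) and 6 fed libraries (0 h and 2 h), 12 of the 162 libraries of the series. The study sequenced the mRNA of 9 organs of 18 mice over 6 times of short-term fasting (STF), with 3 mice at each time, to follow how organs respond to the loss of food. All mice were C57BL/6J males of 8 to 9 weeks kept in 12 h of light and 12 h of dark, and the labels give fasting time as what sets the groups apart, with no drug and no engineered allele, while the sequencing lane differed as well (below). Food was removed 5.5 h after lights on in the 8 h group, 1.5 h after lights on in the 12 h group and 0.5 h before lights off in the 2 h group, and every mouse was killed 1.5 to 2 h after lights off. Mice eat mainly in the dark, and the 2 h group, counted as fed, was without food at the start of the night as were the 8 h and 12 h groups, which were also without food for much of the day. Food intake was not among the data used here. The 18 h and 22 h groups, which lost food in the dark of the night before, are used below as a late fast.

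After a meal the liver takes up glucose under insulin, stores it as glycogen and turns the surplus into fatty acids. As food runs out, glucagon, glucocorticoids and fatty acids from adipose tissue act through CREB, FoxO1, the glucocorticoid receptor and PPARA, and the liver moves to glycogen breakdown, gluconeogenesis, fatty acid oxidation and ketone bodies. Hepatocytes also secrete most plasma proteins, and they take on different tasks along the axis from the portal to the central vein.

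Each of the 12 libraries held 7338209 to 12451777 counts, with a median of 8460993.5, and 3 counts equalled 0.241 to 0.409 CPM. The hepatocyte markers, led by Alb, summed to 88305 to 100072 normalized CPM in the fed and 79808 to 96906 in the fasted libraries, and 5 of the 10 fell, Apoh among them (log2FC -0.66 ± 0.15), where 8.29% of all genes tested in edgeR fell (below). In edgeR 0 of the 10 were called with the lane as a covariate and 1 within lane 1, while over all 12 libraries 5 were at an unadjusted p under 0.05 and DESeq2 called 5 lower. Normalized CPM are CPM of a library size scaled by TMM factors, and values below are in that unit unless another is named. The labels name 2 sequencing lanes. Lane 1 held the 6 fed libraries and 8 h replicates 1 and 2, and lane 2 held 8 h replicate 3 and all 3 of the 12 h libraries, so lane and fasting can be separated only through the 8 h group.

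Several libraries stood apart. The fed library 0 h replicate 3 had Pck1 at 563 where the next fed library had 4957, and Hspa5 at 1999 where the next had 798. The fasted library 12 h replicate 3 gave 28.3% of its counts to its 10 most abundant genes, and the other 5 fasted libraries gave 16.1 to 20.2%. Transcripts of skeletal muscle, led by Acta1, summed to 128 in 8 h replicate 3 and to 712, 265 and 94.1 in the 12 h libraries, against 1.42 and 1.07 in 8 h replicates 1 and 2. In the fed libraries they summed to 28.6, 24.9 and 0.703 at 0 h and to 1.32, 0.665 and 46.7 at 2 h. All 6 muscle markers were kept, with a median log2FC of 3.66, and in edgeR none of them passed, while 6 were at an unadjusted p under 0.05 and 1 passed in DESeq2.

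Markers of other cell types were measured in the same way. Kupffer cell markers, led by Clec4f, summed to 198, 275 and 443 (lowest, median and highest) in the fed and to 162, 185 and 288 in the fasted libraries, and 3 of the 8 fell, Vsig4 among them (log2FC -0.73 ± 0.21), where 8.29% of all genes fell. With the lane as a covariate and within lane 1 edgeR called 0 of the 8, while over all 12 libraries 7 were at an unadjusted p under 0.05 and DESeq2 called 4 lower. Vsig4 was not called without 2 h replicates 2 and 3, 8 h replicates 1 and 2 or 12 h replicate 3 (adjusted p 0.0558 to 0.0729). Fewer cells of a type and less RNA per cell cannot be told apart in bulk tissue. Cholangiocyte markers had 1 of 6 higher and 1 lower, the sinusoidal endothelial markers, led by Stab1, had 1 of 8 lower, and the stellate cell markers, led by Ecm1, had 1 of 8 higher and 1 lower. The higher one was Des, which skeletal muscle also expresses and which was not called without 0 h replicates 1, 2 and 3, 2 h replicates 1, 2 and 3, 8 h replicate 3 or 12 h replicates 1, 2 and 3 (adjusted p 0.0602 to 0.0986), nor with the lane as a covariate or within lane 1. The adipocyte list had a single member that was kept, Cfd, which rose, and the pancreatic acinar list had a single one, Cela1, which fell. Cfd was not called without 0 h replicate 1, 2 h replicate 3 or 8 h replicate 2 (adjusted p 0.0512 to 0.056), nor Cela1 without 0 h replicates 1 and 2, 2 h replicate 3, 8 h replicate 2 or 12 h replicates 2 and 3 (adjusted p 0.0604 to 0.0789). Markers of B cells (4 kept, led by Ighm), T and NK cells (1 kept, Cd4), neutrophils (1 kept, S100a9) and erythroid cells (5 kept, led by Hba-a1) did not pass in edgeR. In these lists the count at an unadjusted p under 0.05 was 0, 0, 1 and 0, and DESeq2 called 0, 0, 1 and 0. The 7 gastric markers, led by Atp4a, were under the filter on low counts and summed to 0.384 to 2.53 in the fed and 0.743 to 13.5 in the fasted libraries, with 1 of them at 0 counts in all 12.

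**Figure D1:**
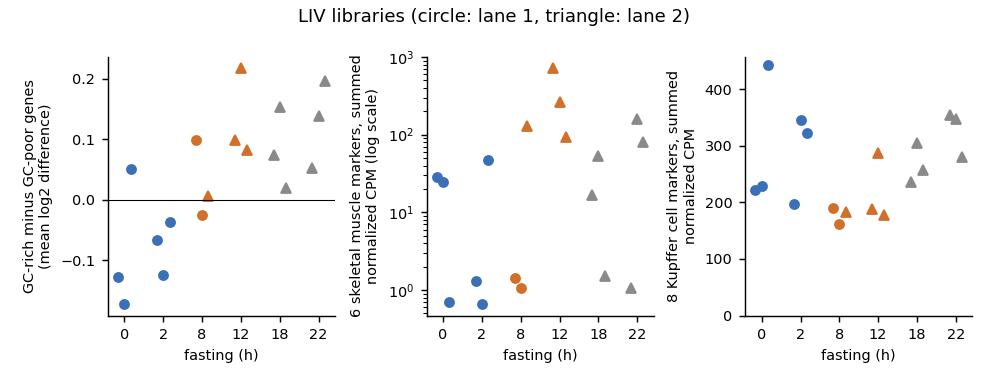
Library measures of the fed and fasted LIV libraries by fasting time: the difference in mean log2 level between the genes of highest and lowest GC content, the summed skeletal muscle markers on a log axis and the summed Kupffer cell markers, both in normalized CPM. Each symbol is a library, circles for lane 1 and triangles for lane 2, and the 4 fasted libraries of lane 2 have muscle sums of 94.1 to 712.

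Many genes differed by a little between the livers of the daytime fast and the fed livers. Of 13574 genes tested, 1085 were higher (7.99%) and 1125 lower (8.29%) than in the fed livers at an adjusted p under 0.05 in edgeR's quasi-likelihood test, and the median absolute log2FC of these genes was 0.49. Of the genes tested, 0.774% were higher and 0.39% lower with an absolute log2FC above 1 as well, and these 158 genes are called DEGs below, 53 of them lower. In 259 of the genes that rose (23.9%) and 246 of those that fell (21.9%), the 6 fasted libraries did not overlap the 6 fed libraries, and over all 13574 genes the fasted libraries lay above the fed in 278 and below them in 262. The first principal component, with 29.7% of the variance, ran from -35.4 to -6.1 in the fed and from -0.3 (8 h replicate 3) to 29.9 in the fasted libraries.

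Fewer genes passed in fits that allow for the lane. With the lane as a covariate 140 genes were higher and 34 lower. Within lane 1, where 8 h replicates 1 and 2 stood against the 6 fed libraries, 397 genes passed, 252 of them higher. Of the 87 genes named in this report that passed, 26 also passed with the lane as a covariate. P4hb and Des are examples of those that did not, and the folds of such genes were not summarised. The log2FC of P4hb was -0.46 in all 12 libraries and -0.43, not called, with the lane as a covariate, while that of Des changed sign. Single libraries mattered too. Without 2 h replicate 2 the counts were 564 and 569, without 12 h replicate 3 they were 571 and 577, without 0 h replicate 1 they were 635 and 652, and without 0 h replicate 2 they were 618 and 621. Without 12 h replicate 2 they were 695 and 671, and without 8 h replicate 2 they were 736 and 725. The 158 DEGs were 91 without 0 h replicate 2 and 62 without 2 h replicate 2, the higher DEGs were 67 without 0 h replicate 1, and without 0 h replicate 3 1.25% of the genes were higher DEGs. All DEGs were 261 without 8 h replicate 3 and 88 without 12 h replicate 3, and of the lower DEGs 28 were left without 8 h replicate 1. Where a gene below is said not to be called without several libraries, each of them was left out on its own. Without the 3 libraries of highest muscle sums, 976 genes were higher and 891 lower. The part that lane and muscle transcripts have in the gene results below was not tested further than by these fits.

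Among the genes that rose, Peg3, Pcgf2 and Kifc2 had the smallest adjusted p. Peg3, an imprinted gene for a zinc finger protein expressed from the paternal allele (chr7:6703892-6730431), was at 13.1, 15.9 and 21.1 in the fed libraries (lowest, median and highest) and at 30.1, 36.2 and 41.3 in the fasted ones, for a log2FC of 1.13 ± 0.12 (± standard error, n = 6 and 6, adjusted p = 0.000601). Every fasted library lay above every fed one, and the log2FC was 1.29 at 8 h and 0.95 at 12 h. Pcgf2, a subunit of the Polycomb complex PRC1 (chr11:97688823-97700497), went from 11.03, 12.9 and 18.3 fed to 24.9, 27.3 and 32.8 fasted (log2FC 1.03 ± 0.12, adjusted p = 0.000672). Its groups were also apart, and its log2FC was 1.02 at 8 h and 1.05 at 12 h. The kinesin gene Kifc2 (chr15:76659858-76668196) rose from 17.7, 24.8 and 28.6 to 37.5, 49.5 and 61.5 (log2FC 1.04 ± 0.13, adjusted p = 0.00138). Mapk15, an atypical MAP kinase of the same chromosome (chr15:75993769-75999154), was among the 15 genes of largest log2FC that passed with a mean of at least 5 normalized CPM, and went from 11.8, 20.1 and 25.9 to 30.6, 51.8 and 84.1 (log2FC 1.52 ± 0.29, adjusted p = 0.0103). Neither Kifc2 nor Mapk15 had a fasted library at or under the highest fed one. All of these genes passed with the lane as a covariate and within lane 1.

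Other genes that rose with the groups apart were Hyi, Tnnc1, Snord104, Eva1a, Ccdc107, Tmc4 and Pet100. Hyi, the hydroxypyruvate isomerase gene, had 44.6, 67.3 and 76.2 in the fed and 96.5, 123.2 and 155.9 in the fasted libraries (log2FC 0.90 ± 0.13, adjusted p = 0.00302). Tnnc1, the troponin C of slow and cardiac muscle, went from 7.94, 9.35 and 13.9 to 16.2, 20.8 and 29.8 (log2FC 1.10 ± 0.16, adjusted p = 0.00302). In 8 h replicates 1 and 2, where the muscle sums were 1.42 and 1.07, Tnnc1 was at 22.1 and 21.5, above the highest fed value of 13.9. Snord104, the gene of a small nucleolar RNA, ranged over 7.598 to 9.99 fed and 11.3 to 19.7 fasted (log2FC 0.96 ± 0.13). The libraries were made from mRNA, and which transcript the reads counted for Snord104 came from was not tested. Pet100, an assembly factor of cytochrome c oxidase, ranged over 21.98 to 29.6 fed and 36.8 to 52.1 fasted (log2FC 0.73 ± 0.11). The log2FC of Eva1a, Ccdc107 and Tmc4 was 0.75, 0.77 and 0.92, with adjusted p of 0.00302, 0.00302 and 0.00403. Lower expressed genes of large change overlapped in part, such as the sorting nexin Snx32 (log2FC 1.13 ± 0.26), the xylose phosphatase Pxylp1 (1.09 ± 0.27) and the antisense transcript N4bp2os (1.07 ± 0.22), whose reads may be those of its partner since strand use in counting was not stated. Of these genes, Hyi, Tnnc1, Snord104, Eva1a, Ccdc107, Tmc4 and N4bp2os passed with the lane as a covariate, and Hyi, Tnnc1, Snord104, Pet100, Eva1a, Ccdc107, Tmc4, Snx32, Pxylp1 and N4bp2os passed within lane 1.

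Among the genes that fell, Them7 had the smallest adjusted p. Them7, a thioesterase superfamily gene (chr2:105224320-105379796), went from 18.5, 19.9 and 22.98 in the fed to 8.40, 10.3 and 12.7 in the fasted libraries (log2FC -0.97 ± 0.11, adjusted p = 0.000672). Krcc1 (chr6:71271677-71285319), a gene of little known function, went from 42.2, 46.1 and 51.4 to 24.7, 29.4 and 31.8 (log2FC -0.68 ± 0.09, adjusted p = 0.00146). In both genes the highest fasted library was under the lowest fed one. Cpb2, the plasma carboxypeptidase that slows the dissolving of fibrin clots (chr14:75242287-75283555), went from 204, 282 and 362 to 154.1, 158 and 182.8 (log2FC -0.80 ± 0.11, adjusted p = 0.0029). The 6 fasted values of Cpb2 lay close together and under all fed values. Ctss, the lysosomal protease cathepsin S of antigen presenting cells, fell from 12.6, 25.5 and 28.6 to 7.13, 10.1 and 13.6 (log2FC -1.22 ± 0.19, adjusted p = 0.00454). The chemokine gene Ccl9 fell from 36.7, 53.5 and 62.2 to 27.3, 30.0 and 35.1 (log2FC -0.78 ± 0.12, adjusted p = 0.00302). The groups were apart in Ccl9, while in Ctss 5 of 6 fasted libraries were under all fed ones. All of these genes passed with the lane as a covariate and within lane 1.

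Tgfbr2, a receptor of TGF-beta, ranged over 18.7 to 30.8 fed and 11.6 to 15.9 fasted (log2FC -0.83 ± 0.13, adjusted p = 0.00364). Ugt2b1, a glucuronosyltransferase, ranged over 606 to 898 and 445 to 522 (log2FC -0.67 ± 0.10, adjusted p = 0.00364), and Actr3, a subunit of the actin nucleating Arp2/3 complex, over 56.3 to 66.4 and 37.8 to 48.2 (log2FC -0.50 ± 0.08). In these genes, and in the lipase gene Abhd2 (log2FC -0.82 ± 0.12) and Atrnl1 (-0.64 ± 0.10), the fasted libraries did not overlap the fed. Of the genes that passed with a mean of at least 5 normalized CPM, the 15 of most negative log2FC held Plac8, a cysteine-rich gene of immune cells (log2FC -1.05 ± 0.23), and Lyz2, the lysozyme of macrophages (log2FC -1.01 ± 0.29). Lyz2 was not called without 0 h replicate 2, 2 h replicates 2 and 3, 8 h replicates 1 and 2 or 12 h replicates 1, 2 and 3 (adjusted p 0.0531 to 0.0797). The Kupffer sums, with medians of 275 fed and 185 fasted, stand beside Plac8 and Lyz2 and beside Ctss and Ccl9 above, and their part was not tested. Of these genes, Ugt2b1, Abhd2 and Atrnl1 passed with the lane as a covariate, and Ugt2b1, Actr3, Abhd2 and Atrnl1 passed within lane 1.

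**Figure D2:**
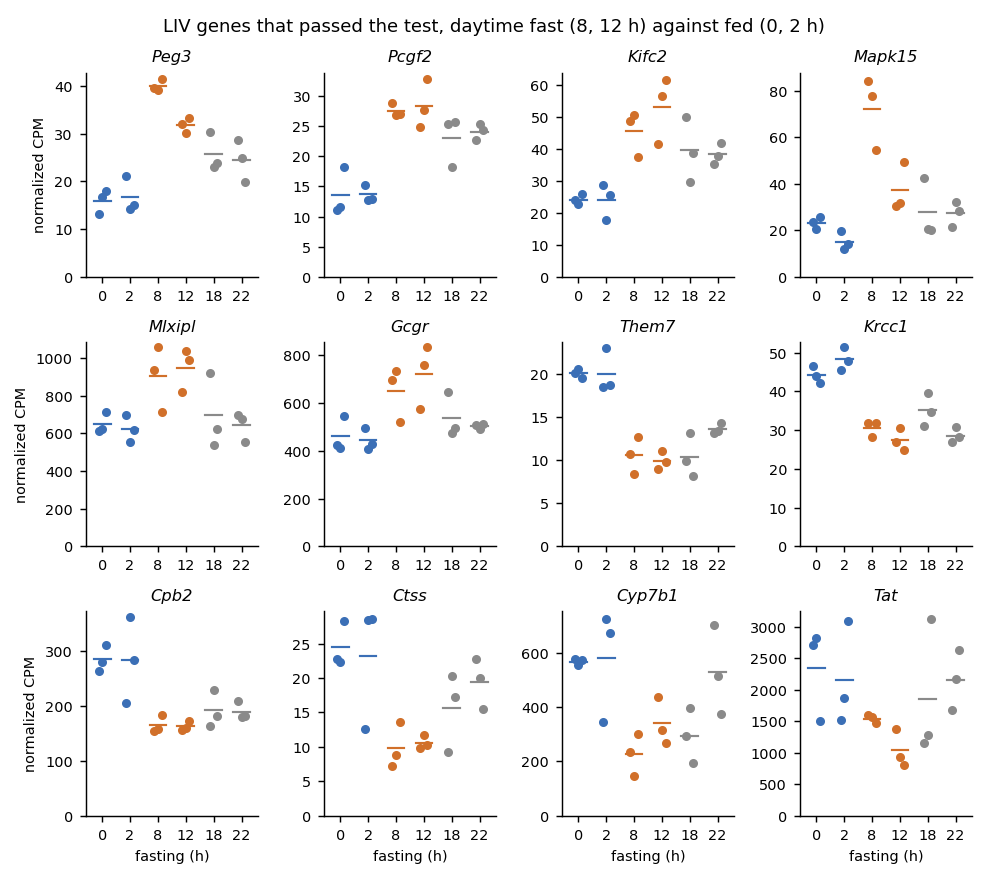
Normalized CPM of 12 genes that passed the test, in each LIV library by hours of fasting: blue points are fed, orange points daytime fasted and grey points late fasted libraries, and each bar is the mean of 3 libraries. Peg3, Pcgf2, Kifc2, Mapk15 and Mlxipl lie higher, and Them7, Krcc1 and Cpb2 lower, in all 6 daytime fasted than in all 6 fed libraries.

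Among the genes that passed with a mean of at least 5 normalized CPM, Tpm2 and Des, which skeletal muscle expresses, had the largest log2FC. Tpm2, a tropomyosin, was at 17.1, 12.7 and 47.2 in the 8 h and at 147.5, 47.1 and 29.5 in the 12 h libraries, against 4.58 to 11.9 fed (log2FC 2.53 ± 0.61, adjusted p = 0.0224). All 6 fasted values were above the fed ones, the lowest of them in 8 h replicates 1 and 2, where muscle sums were lowest. Des, the desmin gene, had 7.24, 7.24 and 40.9 at 8 h and 91.7, 30.9 and 19.9 at 12 h against 6.41 to 10.99 fed (log2FC 2.06 ± 0.61, adjusted p = 0.0452). Its values in 8 h replicates 1 and 2 were within the fed range, and its log2FC was -0.11 within lane 1. Eno3, the muscle and liver form of enolase, had 21.9, 23.1 and 18.5 at 8 h and 54.5, 34.8 and 32.8 at 12 h against 10.4 to 16.7 fed (log2FC 1.24 ± 0.24, adjusted p = 0.00934), with the groups apart. Cfd, the adipsin gene of fat cells, ranged over 0.4996 to 4.81 fed and 2.54 to 9.83 fasted (log2FC 1.65 ± 0.44). Tpm2 was not called without 2 h replicate 2 (adjusted p 0.0562), nor Des without 0 h replicates 1, 2 and 3, 2 h replicates 1, 2 and 3, 8 h replicate 3 or 12 h replicates 1, 2 and 3 (adjusted p 0.0602 to 0.0986), nor Cfd without 0 h replicate 1, 2 h replicate 3 or 8 h replicate 2 (adjusted p 0.0512 to 0.056). Of the other genes, none passed with the lane as a covariate, and Eno3 passed within lane 1. Without the 3 libraries of highest muscle sums (12 h replicates 1 and 2 and 8 h replicate 3), a fit chosen after seeing the data, Tpm2, Eno3 and Cfd were called with log2FC values of 1.18, 0.98 and 1.63, and Des, at 0.52, was not (adjusted p = 0.277).

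Pck1, the enzyme that commits carbon to gluconeogenesis, had 563, 5046 and 6897 in the fed and 1988, 2614 and 3848 in the fasted libraries (log2FC -0.82 ± 0.45, adjusted p = 0.232). The fed range was wide, since 0 h replicate 3 was at 563 and the other 5 at 4957 or more. G6pc, which releases free glucose, had 85.3, 246 and 313 fed and 133.1, 228 and 421 fasted (log2FC 0.11 ± 0.37, adjusted p = 0.866). Of 20 gluconeogenesis genes 4 fell (20%, against 8.29% of all genes) and the other 16 did not pass, with a median log2FC of -0.22 against 0.01 over all genes. The cytosolic malate dehydrogenase Mdh1 fell from 378, 464 and 575 to 215, 304 and 429.8 (log2FC -0.67 ± 0.15), with some overlap. Tat, which breaks down tyrosine and is a textbook target of glucocorticoids and glucagon, fell from 1509, 2285 and 3093 to 797, 1419 and 1592 (log2FC -0.81 ± 0.23, adjusted p = 0.0314). It was not called without 0 h replicates 1 and 2, 2 h replicate 3 or 12 h replicates 2 and 3 (adjusted p 0.0558 to 0.0669). Of Mdh1 and Tat, neither passed with the lane as a covariate or within lane 1.

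In edgeR over all 12 libraries no gene of the fatty acid oxidation or ketone body lists rose, while 8 and 3 were at an unadjusted p under 0.05 in either direction. Of the oxidation list 1 gene was higher in DESeq2 and 1 within lane 1, and of the ketone body list DESeq2 called 0 higher. Cpt1a, the gate of fatty acid entry into mitochondria, had 130.2, 249 and 287 fed and 130.7, 146.2 and 245 fasted (log2FC -0.57 ± 0.19, adjusted p = 0.0535). It overlapped between the groups, and so did Pdk4, which restrains pyruvate oxidation, at 1.998 to 9.29 fed and 1.13 to 12.4 fasted (log2FC 0.91 ± 0.58, adjusted p = 0.299). Of 42 PPARA targets and oxidation genes 4 fell (9.52%, against 8.29% of all genes) and 38 did not pass. The median log2FC of the list was -0.09, with a range from -1.32 to 1.13. Acads, the short-chain acyl-CoA dehydrogenase, fell from 118.5, 142.7 and 170.7 to 75.4, 91.3 and 135.7 (log2FC -0.55 ± 0.13, adjusted p = 0.0149). Of 7 genes of ketone body synthesis and export 1 fell, Bdh1, the mitochondrial hydroxybutyrate dehydrogenase, from 139.5, 152.9 and 204 to 97.5, 110.1 and 149.7 (log2FC -0.54 ± 0.13), and 6 did not pass. The PPARA targets Angptl4, Acot1 and Cyp4a14 had log2FC values of -0.33, -0.17 and 1.13 with adjusted p of 0.604, 0.816 and 0.394, and Fgf21 was under the filter on low counts. Of Acads and Bdh1, neither passed with the lane as a covariate or within lane 1.

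**Figure D3:**
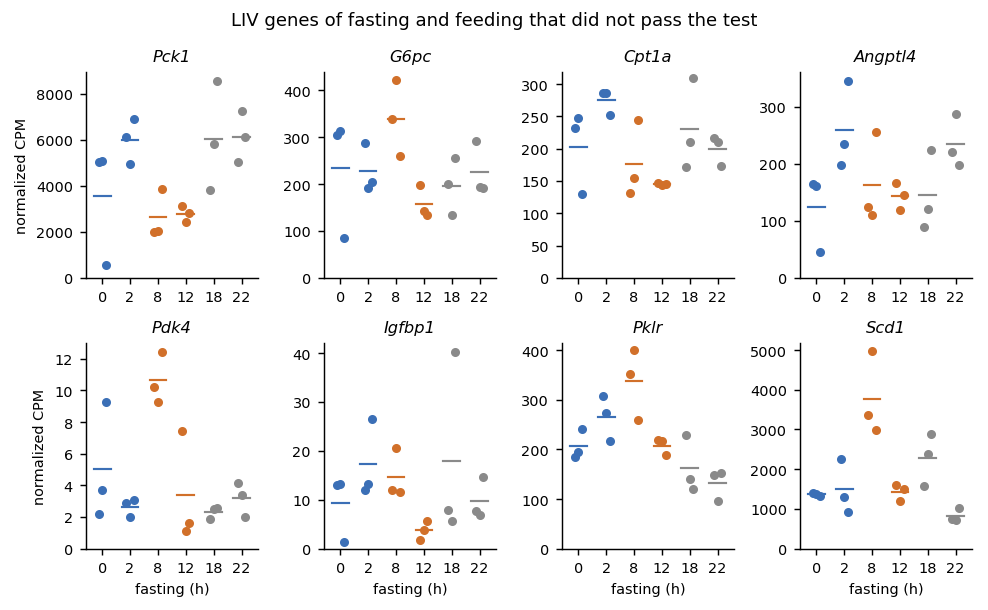
Normalized CPM of 8 genes of glucose and lipid metabolism that did not pass the test, in each LIV library by hours of fasting: blue points are fed, orange points daytime fasted and grey points late fasted libraries, and each bar is the mean of 3 libraries. Fed and daytime fasted libraries overlap in each gene, and Pck1 is at 563 in 0 h replicate 3.

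Mlxipl, which encodes ChREBP, the transcription factor that senses glucose products and turns on glycolysis and lipogenesis, rose from 555, 619 and 711 to 716, 962 and 1059 (log2FC 0.54 ± 0.10, adjusted p = 0.0076), with the groups apart. Gcgr, the glucagon receptor, rose from 407, 426 and 547 to 519, 716 and 834 (log2FC 0.60 ± 0.12, adjusted p = 0.00777), and 5 of 6 fasted libraries were above all fed ones. Gckr, a regulator of hepatic glucose use, rose from 192.02, 221 and 316 to 253, 334 and 405 (log2FC 0.52 ± 0.14). It was not called without 2 h replicate 2 or 8 h replicate 2 (adjusted p 0.0509 and 0.0531). The ChREBP target Pklr had a log2FC of 0.21 ± 0.19 (adjusted p = 0.471). In the list of glycolysis, fructose use and glucose sensing 2 of 19 rose (10.5%, against 7.99% of all genes) and 1 fell (5.26%), with a median log2FC of -0.01. Of 14 glycogen genes 2 rose (14.3%), Phkg2 among them, and 12 did not pass, while Gys2, the liver glycogen synthase, had a log2FC of -0.17 ± 0.13 (adjusted p = 0.372). Phkg2, a subunit of phosphorylase kinase (log2FC 0.43 ± 0.14), was not called without 0 h replicates 1 and 2, 2 h replicates 1, 2 and 3, 8 h replicates 1 and 2 or 12 h replicates 1, 2 and 3 (adjusted p 0.0501 to 0.111). In the insulin, glucagon and FoxO list 2 of 26 rose and 1 fell, with a median log2FC of -0.14. The fallen member was Igfbp2, an IGF binding protein (log2FC -0.45 ± 0.10), while the insulin regulated Igfbp1 and Irs2 had log2FC values of -0.51 and 0.23 (adjusted p = 0.606 and 0.611). Of these genes, Mlxipl and Gckr passed with the lane as a covariate, and Mlxipl, Gcgr and Gckr passed within lane 1.

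Of 27 fatty acid synthesis and SREBP1 genes 1 rose (3.7%, against 7.99% of all genes) and 2 fell (7.41%, against 8.29%). The median log2FC of the list was -0.05. Dgat1 and Dgat2, both of which make triglyceride, parted, since Dgat1 rose from 35.4, 38.4 and 39.8 to 39.03, 50.2 and 55.8 (log2FC 0.36 ± 0.09) and Dgat2 fell from 489, 527 and 638 to 339, 422 and 504 (log2FC -0.40 ± 0.11). Dgat2 was not called without 0 h replicates 1 and 2 or 12 h replicates 2 and 3 (adjusted p 0.0569 to 0.0613). Scd1, the fatty acid desaturase, had 3362, 4966 and 2979 at 8 h and 1596, 1192 and 1490.5 at 12 h against 926 to 2256 fed (log2FC 0.86 ± 0.36, adjusted p = 0.12). The 8 h values reach above the fed ones and the 12 h values overlap them, and the difference between 12 h and 8 h had an adjusted p of 0.108. Fasn, Srebf1 and Acaca had log2FC values of -0.13, -0.14 and 0.28 and did not pass. With the lane as a covariate 3 members of this list were higher, and within lane 1 there were 4. Of Dgat1 and Dgat2, neither passed with the lane as a covariate or within lane 1.

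Of 26 genes of cholesterol synthesis 3 fell (11.5%, against 8.29% of all genes) and 23 did not pass, with a median log2FC of -0.18. Cyp51, the lanosterol demethylase, fell from 108, 129.7 and 163.5 to 84.0, 98.0 and 110.95 (log2FC -0.45 ± 0.11, adjusted p = 0.0139), and Hsd17b7, a reductase of the same pathway, from 36.2, 45.4 and 56.4 to 24.4, 30.8 and 40.5 (log2FC -0.51 ± 0.13). Of 21 genes of bile acid synthesis and transport 1 rose (4.76%) and 4 fell, with a median log2FC of -0.05. Cyp7b1, the hydroxylase of the alternative pathway, fell from 344, 576 and 726 to 147.2, 286 and 439 (log2FC -1.02 ± 0.23, adjusted p = 0.0149), and 5 of 6 fasted libraries were under all fed ones. Slc10a1, the sodium-dependent uptake carrier, fell from 243, 276 and 351 to 137.9, 163.6 and 248 (log2FC -0.66 ± 0.15). The bile acid receptor Nr1h4 (FXR) rose from 169.6, 207 and 228 to 234.2, 265 and 296 (log2FC 0.39 ± 0.09), with the groups apart. Cyp7a1 and Cyp8b1, of the classic pathway, had log2FC values of 0.03 and 0.26 (adjusted p = 0.969 and 0.496). Of these genes, Hsd17b7 and Cyp7b1 passed with the lane as a covariate and within lane 1, and the others did not.

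Of 36 genes of amino acid breakdown and the urea cycle 11 fell (30.6%, against 8.29% of all genes). In this list 2 rose (5.56%, against 7.99% of all genes) and 23 did not pass, and the median log2FC was -0.26. Cps1, which takes ammonia into the urea cycle, fell from 1229, 1797 and 2098 to 936, 1221 and 1346 (log2FC -0.56 ± 0.12, adjusted p = 0.0111). Oat, the ornithine aminotransferase, fell from 503, 628 and 864 to 331, 404 and 585 (log2FC -0.68 ± 0.16, adjusted p = 0.0134). Both genes had fasted libraries within the fed range. Agxt, which removes glyoxylate, ranged over 186 to 278 fed and 145.8 to 188.3 fasted (log2FC -0.49 ± 0.11), and Cth, which makes cysteine, over 211 to 331 and 158 to 236 (log2FC -0.52 ± 0.13). The 2 members that rose, Ftcd and Uroc1, break down histidine (log2FC 0.42 ± 0.13 and 0.34 ± 0.11). Ftcd was not called without 0 h replicates 1 and 2, 2 h replicates 1, 2 and 3, 8 h replicates 1 and 2 or 12 h replicates 2 and 3 (adjusted p 0.0532 to 0.0931), nor Uroc1 without 0 h replicates 1 and 2, 2 h replicates 1, 2 and 3, 8 h replicates 1 and 2 or 12 h replicates 2 and 3 (adjusted p 0.0552 to 0.0996), and neither was called with the trend on GC content taken out (below). With the lane as a covariate and within lane 1 the list had 0 calls in edgeR, while 19 members were at an unadjusted p under 0.05 and DESeq2 called 3 higher and 11 lower in all 12 libraries.

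Of 15 periportal genes 5 fell (33.3%) and 2 rose (13.3%), and of 17 pericentral genes 5 fell (29.4%) and 12 did not pass. Of all genes 8.29% fell and 7.99% rose. The median log2FC values of the 2 lists were -0.31 and -0.30. The periportal cytochrome Cyp2f2 fell from 904, 1118 and 1180.5 to 671, 773 and 965 (log2FC -0.46 ± 0.10, adjusted p = 0.0116), and the aldehyde dehydrogenase Aldh1b1 from 33.8, 44.9 and 55.3 to 24.02, 27.01 and 34.8 (log2FC -0.69 ± 0.12). Of the pericentral cytochromes, Cyp1a2 fell from 735, 927 and 1196 to 553, 639 and 799.6 (log2FC -0.53 ± 0.13) and Cyp2e1 from 4700.2, 5169.8 and 7154 to 2983, 3675 and 5491 (log2FC -0.56 ± 0.15). Groups overlapped in each of the 4, and Cyp2e1 was not called without 0 h replicate 2 (adjusted p 0.0503). With the lane as a covariate edgeR called 0 members of either list, and within lane 1 it called 1 periportal and 0 pericentral members. Over all 12 libraries 8 members of each list were at an unadjusted p under 0.05. DESeq2 called 2 periportal members higher and 6 lower, and 5 pericentral members lower. Of the 4 genes named, none passed with the lane as a covariate, and Aldh1b1 passed within lane 1.

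Of 25 genes for chaperones of the endoplasmic reticulum (ER) and the unfolded protein response 9 fell (36%, against 8.29% of all genes). The other 16 did not pass, and the median log2FC of the list was -0.35. Dnajc3, a co-chaperone that also restrains the kinase PERK, fell from 162, 180.1 and 219.5 to 121.4, 124.9 and 139.1 (log2FC -0.56 ± 0.09, adjusted p = 0.00496). P4hb, a protein disulfide isomerase, fell from 1196, 1433 and 1683 to 981, 1016 and 1142 (log2FC -0.46 ± 0.09, adjusted p = 0.00786). Ssr3, a subunit of the translocon-associated complex, fell from 269, 302 and 332 to 201, 213 and 243 (log2FC -0.48 ± 0.09, adjusted p = 0.00624). In each of the 3 the fasted libraries lay under all fed ones, as they did in the co-chaperone Dnajb9 (log2FC -0.75 ± 0.16), which was not called without the 3 libraries of highest muscle sums. Hspa5 (BiP), the main chaperone of the ER, had 488, 686 and 1999 fed and 458, 544 and 654 fasted (log2FC -0.69 ± 0.30, adjusted p = 0.138). The highest fed value came from 0 h replicate 3, which was also highest in Creld2 (318 against 85.6 in the next fed library) and Sdf2l1 (115.6 against 28.4). Of these genes, none passed with the lane as a covariate or within lane 1. With the lane as a covariate and within lane 1 the list had 0 calls in edgeR, while over all 12 libraries 11 members were at an unadjusted p under 0.05 and DESeq2 called 10 lower.

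Many genes of this list carry the ER stress element in their promoter, the letters CCAAT, 9 bases of any kind and CCACG, which bind NF-Y and ATF6. The element was looked for on both strands of 300 bases around the transcription start in RefSeq promoters of GRCm38.p6. It stood in 35 of 27025 promoters (0.13%), in 17 of the 9670 tested genes that had one (0.176%) and in 9 of the 22 ER list genes that had one (40.9%). Among the 8 ER genes that fell and had a promoter there, 3 held it, namely Pdia6 (log2FC -0.54 ± 0.13), Canx (log2FC -0.51 ± 0.11) and Dnajc3. Of the 3 genes none passed with the lane as a covariate or within lane 1. The log2FC with the lane as a covariate was -0.62 in Pdia6 and -0.45 in Canx. The 3 genes were also not called with the 8 h libraries alone as fasted, nor Pdia6 with the 12 h libraries alone. The element stood in 37.5% of the ER genes that fell and in 40.9% of the ER list. Other genes of the list held it and did not pass, Hspa5 among them. The promoters of Pdia6, Canx and Dnajc3 are shown because the 3 genes share the element. Each reads from 5′ to 3′ along the gene, with the element in capitals: Pdia6 at chr12:17266339-17266638 (+), Canx at chr11:50325624-50325923 (-) and Dnajc3 at chr14:118937682-118937981 (+). A match describes the sequence and does not show that a factor binds there.
Pdia6: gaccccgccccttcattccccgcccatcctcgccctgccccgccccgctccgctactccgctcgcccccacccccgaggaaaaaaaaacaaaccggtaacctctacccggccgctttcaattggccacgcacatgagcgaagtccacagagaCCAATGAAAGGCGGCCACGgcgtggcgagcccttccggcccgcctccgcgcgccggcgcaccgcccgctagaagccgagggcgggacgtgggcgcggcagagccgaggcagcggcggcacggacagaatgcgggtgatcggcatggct
Canx: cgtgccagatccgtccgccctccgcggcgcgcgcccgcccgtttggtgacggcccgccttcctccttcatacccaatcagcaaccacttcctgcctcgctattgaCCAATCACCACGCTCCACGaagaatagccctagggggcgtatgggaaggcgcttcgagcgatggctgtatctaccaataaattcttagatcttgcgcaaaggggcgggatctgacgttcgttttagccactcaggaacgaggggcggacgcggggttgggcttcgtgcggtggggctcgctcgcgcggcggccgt
Dnajc3: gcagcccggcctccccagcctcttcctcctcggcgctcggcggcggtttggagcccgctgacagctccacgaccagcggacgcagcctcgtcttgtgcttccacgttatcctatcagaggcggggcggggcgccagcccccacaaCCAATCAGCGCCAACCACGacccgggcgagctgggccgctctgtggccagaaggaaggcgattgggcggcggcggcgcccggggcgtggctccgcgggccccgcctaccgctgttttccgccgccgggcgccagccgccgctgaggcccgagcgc

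Of 31 proteasome genes 9 fell, 1 rose (3.23%) and 21 did not pass, with a median log2FC of -0.15, where 8.29% of all genes fell and 7.99% rose. With the lane as a covariate and within lane 1 the proteasome list had 0 calls in edgeR. Over all 12 libraries 16 members were at an unadjusted p under 0.05, and DESeq2 called 2 higher and 10 lower. Psma1, of the outer ring of the core particle, fell from 55.1, 64.2 and 70.8 to 41, 45.97 and 48.4 (log2FC -0.49 ± 0.08, adjusted p = 0.00536), and Psmb2, of the inner ring, from 47.7, 53.7 and 62.97 to 31.4, 37.2 and 42.6 (log2FC -0.55 ± 0.10, adjusted p = 0.00624), both with the groups apart. Of 23 autophagy and lysosome genes 5 fell (21.7%), 1 rose (4.35%) and 17 did not pass, with a median log2FC of -0.14. The member that rose was Tfeb, the transcription factor that turns on lysosomal genes, from 13.2, 16.5 and 19.6 to 20.04, 22.1 and 28.9 (log2FC 0.51 ± 0.11, adjusted p = 0.0111), with no overlap of the groups. Tfeb was not called with the trend on GC content taken out (below). The lysosomal membrane protein Lamp1 and the protease Ctsl fell, Lamp1 from 416, 522 and 557 to 281, 305 and 475 (log2FC -0.61 ± 0.13) and Ctsl from 273, 420.0 and 447 to 199, 219 and 321 (log2FC -0.73 ± 0.14). Of 21 heat shock and cold-inducible genes 2 fell (9.52%) and 19 did not pass, with a median log2FC of -0.13. The cytosolic co-chaperone Dnaja1 fell from 112.5, 125.9 and 149.8 to 81.8, 97.6 and 108.5 (log2FC -0.39 ± 0.09), with the groups apart, while the inducible Hspa1b had a log2FC of 0.08 ± 0.34 (adjusted p = 0.892). Of these genes, none passed with the lane as a covariate, and Lamp1 passed within lane 1.

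**Figure D4:**
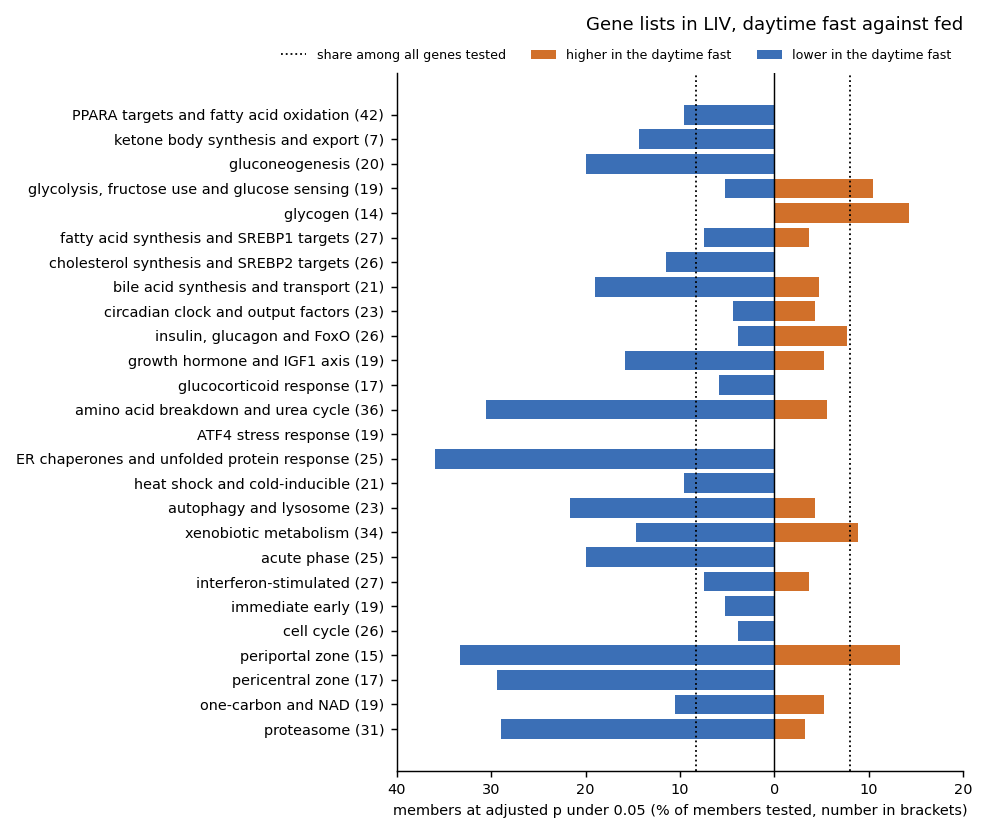
Share of the tested members of each gene list that passed the test in the daytime fast, higher in orange to the right and lower in blue to the left, in percent of the members tested (their number is in brackets). The dotted lines mark the share among all 13574 genes, 7.99% higher and 8.29% lower, and the ER list has the largest share of lower genes, 36%.

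Acute phase proteins were lower in some members and uneven between mice. Of 25 genes 5 fell and 20 did not pass, with a median log2FC of -0.83, where 8.29% of all genes fell. With the lane as a covariate and within lane 1 the list had 0 calls in edgeR. Over all 12 libraries 9 members were at an unadjusted p under 0.05, and DESeq2 called 8 lower. Crp, a pentraxin of the plasma, fell from 271, 309.7 and 423 to 168.1, 199.6 and 234.8 (log2FC -0.68 ± 0.12, adjusted p = 0.00584), with the groups apart. Fga and Fgg, which encode chains of fibrinogen, fell from 916, 1171 and 2896 to 587, 695 and 922 (log2FC -1.03 ± 0.27) and from 1182, 1479 and 3214 to 832, 998 and 1223 (log2FC -0.83 ± 0.21). Fga was not called without 12 h replicate 2 (adjusted p 0.0588). Saa2, a serum amyloid that shares reads with Saa1, had 7.34, 65.4 and 1644 fed and 5.27, 7.20 and 217 fasted (log2FC -3.10 ± 1.64, adjusted p = 0.218). The highest fed library was 2 h replicate 2 and the highest fasted one 12 h replicate 2, which was also highest among the fasted libraries in Saa1, Lcn2 and Orm2. Of 27 interferon-stimulated genes 1 rose (3.7%) and 2 fell (7.41%), with a median log2FC of -0.25. Gbp2, a guanylate-binding protein, fell from 1.28, 2.84 and 3.997 to 1.04, 1.32 and 1.60 (log2FC -1.06 ± 0.27), and was not called without 2 h replicate 2 (adjusted p 0.0547). The Kupffer sums of 162 to 288 fasted against 198 to 443 fed stand beside these genes, and their part was not tested. Of these genes, none passed with the lane as a covariate or within lane 1.

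Of 17 glucocorticoid response genes 1 fell (5.88%, against 8.29% of all genes) and 16 did not pass, with a median log2FC of -0.45, and Fkbp5 and Tsc22d3 had log2FC values of -0.45 and -0.04 (adjusted p = 0.33 and 0.898). The metallothionein Mt2 had 6.34, 13.3 and 835 fed and 2.77, 15.3 and 51.5 fasted (log2FC -3.44 ± 1.46, adjusted p = 0.131), with broad overlap. None of the 19 ATF4 stress genes passed in edgeR, with a median log2FC of -0.01, while 2 were at an unadjusted p under 0.05 and 1 fell in DESeq2. Asns, which makes asparagine, and Ddit3 (CHOP) had log2FC values of -0.63 and -0.07. Of 19 immediate early genes 1 fell, Btg2, from 9.99, 14.5 and 21.5 to 5.09, 8.70 and 10.5 (log2FC -0.94 ± 0.21, adjusted p = 0.0123), and 18 did not pass, with a median log2FC of -0.28. Myc had 14.5, 17.97 and 4.75 at 8 h and 4.01, 36.01 and 63.1 at 12 h against 2.48 to 9.99 fed (log2FC 2.28 ± 0.71, adjusted p = 0.0538). Of 26 cell cycle genes 1 fell and 25 did not pass, with a median log2FC of -0.02, and the proliferation marker Mki67 ranged over 0.986 to 4.58 fed and 1.19 to 2.32 fasted. Btg2 passed with the lane as a covariate and within lane 1.

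In the circadian clock list 1 of 23 rose (4.35%, against 7.99% of all genes) and 1 fell (4.35%, against 8.29%), with a median log2FC of 0.01. Per1, Arntl, Dbp and Nr1d1 had log2FC values of -0.15, 0.67, -0.37 and -0.23, with adjusted p of 0.718, 0.288, 0.593 and 0.686. All mice were killed at the same time of day. Of 19 genes of the growth hormone and IGF1 axis 1 rose (5.26%) and 3 fell (15.8%), with a median log2FC of 0.02. Stat5a, a transcription factor downstream of the growth hormone receptor, rose from 13.5, 17.4 and 19.1 to 20.5, 22.8 and 28.6 (log2FC 0.49 ± 0.12, adjusted p = 0.0133), with the groups apart. Its target Cish ranged over 4.05 to 72.3 fed and 17.1 to 99.8 fasted, and Igf1 had a log2FC of 0.13 ± 0.12 (adjusted p = 0.475). Stat5a passed neither with the lane as a covariate nor within lane 1.

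Of 34 xenobiotic metabolism genes 3 rose (8.82%, against 7.99% of all genes) and 5 fell (14.7%, against 8.29%), with a median log2FC of 0.11. Gstm1, a glutathione transferase, rose from 977, 1149 and 1249 to 1459, 1615 and 1839.8 (log2FC 0.52 ± 0.09, adjusted p = 0.00536), and all 6 fasted libraries were above the fed. Cyp3a11, a target of the pregnane receptor, and Cyp2b10, a target of CAR, had log2FC values of 0.19 and 0.11 (adjusted p = 0.284 and 0.844). Of 19 one-carbon and NAD genes 1 rose (5.26%) and 2 fell (10.5%), with a median log2FC of -0.09. The member that rose was Nmrk1, the nicotinamide riboside kinase, from 71.8, 77.3 and 97.6 to 94.3, 117.6 and 135.6 (log2FC 0.49 ± 0.11, adjusted p = 0.0111), while Nampt and Nnmt had log2FC values of -0.27 and -0.57 and did not pass. Of Gstm1 and Nmrk1, Gstm1 passed with the lane as a covariate, and Gstm1 and Nmrk1 passed within lane 1.

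The 8 h and 12 h groups were also set against the fed libraries in 1 fit of all 12 libraries, and they share the 6 fed ones. At 8 h 176 genes were higher (1.3%) and 94 lower (0.693%), and at 12 h 1194 were higher (8.8%) and 1278 lower (9.42%). In fits that leave the other fasted group out, meant above and below by the 8 h or 12 h libraries alone, 0.766% were higher and 0.346% lower at 8 h, and 8.16% and 8.93% at 12 h. Between 12 h and 8 h themselves, in a direct test, 5 genes passed (0.0368%), which were named after their values were seen. The enzymes Ehhadh, of peroxisomal fatty acid oxidation, and Gpd1, the glycerol phosphate dehydrogenase, were lower at 12 h than at 8 h. Ehhadh had 117.4, 137.9 and 174 at 8 h and 76.7, 56.8 and 69.5 at 12 h (log2FC -1.09, adjusted p = 0.0371), and Gpd1 had 573, 439 and 565 and 300.1, 234.9 and 229.8 (log2FC -1.05). Lipa, the lysosomal acid lipase, had 83.7, 103.7 and 118.6 and 61.03, 56.5 and 58.97 (log2FC -0.80). In these 3 genes the 12 h libraries lay under the 8 h libraries. Selenbp2, a selenium-binding protein, had 1476, 1303 and 1073 and 3584, 3270.0 and 4199 (log2FC 1.51), and Cyp2c55 had 6.58, 6.53 and 3.89 and 1.49, 1.32 and 2.08 (log2FC -1.82). DESeq2 called 107 genes in this comparison and the fit with a replicate block called 1, and the 8 h group has libraries in both lanes while the 12 h group has not.

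The fed libraries of the 2 times were also set against each other. Between 2 h and 0 h 22 genes passed (0.162%), 9 higher and 13 lower at 2 h. Of the 26 genes of the cholesterol synthesis list, counted after these calls were seen, 6 were lower at 2 h (23.1%) and 20 did not pass, with a median log2FC of -0.58. Of the 6, Sqle, the squalene epoxidase, had 53.1, 56.6 and 63.1 at 0 h and 33.1, 30.1 and 20.3 at 2 h (log2FC -1.05, adjusted p = 0.0333). Fdft1, the squalene synthase, had 114.4, 109.2 and 126.2 and 71.2, 50.6 and 48.5 (log2FC -1.04), and Insig1, which holds back the SREBP factors, had 317, 347 and 470.1 and 201, 149.5 and 127 (log2FC -1.25). In each of the 3 all 2 h libraries were under all 0 h libraries. Msmo1, Sc5d and Tm7sf2 were the others (log2FC -1.02, -0.80 and -0.67). The cytokine feedback gene Socs3 was higher at 2 h, with 7.31, 7.85 and 6.76 at 0 h and 16.4, 27.6 and 26.2 at 2 h (log2FC 1.68). These genes were named after their values were seen, and DESeq2 called 221 and the fit with a replicate block 17. With the 0 h libraries alone as the fed group, 403 genes were higher and 408 lower in the daytime fast.

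Livers of the late fast (18 h and 22 h, 6 libraries) were set against those of the daytime fast to see where a longer fast departs from a shorter one. Of 13574 genes 54 were higher and 69 lower in the late fast, 0.906% in all. H2-Aa, H2-Ab1, H2-Eb1 and Cd74, which serve antigen presentation by MHC class II, were among the higher ones. No list of such genes was counted. H2-Aa had 22.3, 26.7 and 30.3 in the daytime and 29.4, 47.9 and 60.9 in the late fast, against 30.1, 35.7 and 41.6 fed (log2FC late against daytime 0.83, adjusted p = 0.00722). Cd74, the invariant chain, had 33.95, 40.2 and 48.1 in the daytime and 42.1, 62.2 and 79.0 in the late fast (log2FC 0.61), and H2-Ab1 and H2-Eb1 had log2FC values of 0.87 and 0.68. This test and that of the daytime fast against fed share the 6 daytime libraries with opposite sign, so changes of opposite direction in both are expected by chance. Ccl9 and Igfbp2 were higher in the late than in the daytime fast (log2FC 0.65 and 0.83). Stat5a and Cgn, a protein of tight junctions, were lower in the late fast (log2FC -0.78 and -0.99), and so was Acss2, which makes acetyl-CoA from acetate (log2FC -0.89). Peg3 was at 19.9, 24.3 and 30.3 in the late fast (log2FC late against daytime -0.52, adjusted p = 0.044). H2-Aa, H2-Ab1, H2-Eb1, Cd74, Cgn and Acss2 were named after their values were seen. The Kupffer sums of the late libraries were 236, 304 and 258 at 18 h and 354, 348 and 280.4 at 22 h, and their part was not tested. The count was 626 in DESeq2 and 22 with the replicate block, and without single libraries it was 284 (12 h replicate 1), 54 (12 h replicate 2), 13 (12 h replicate 3), 3 (8 h replicate 1), 5 (8 h replicate 2) and 227 (8 h replicate 3). All late libraries were in lane 2.

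The response was set against that of 2 adipose tissues of the same mice, interscapular brown (iBAT) and perigonadal white (pgWAT), by testing the difference of the responses. The mouse was a block in these fits, and mice were matched between organs by fasting time and replicate number. Within iBAT 2 genes passed and within pgWAT 0 in edgeR, with 806 and 1667 at an unadjusted p under 0.05, and none of the iBAT and pgWAT log2FC values printed here belong to a gene that passed in that tissue. Between LIV and iBAT 4 of 12187 genes differed (0.0328%), which were Als2cl, Cth, Peg3 and Junb. Peg3 had a log2FC of 1.13 in LIV and -0.62 in iBAT (difference 1.74, adjusted p = 0.0444), and Als2cl had 1.06 and -0.65 (difference 1.70). Cth had -0.52 in LIV and 1.14 in iBAT (difference -1.66), and the immediate early gene Junb, which did not pass in LIV (adjusted p = 0.0694), had -1.03 and 0.74 (difference -1.62). Between LIV and pgWAT 881 of 12647 genes differed (6.97%), 344 with a higher and 537 with a lower log2FC in LIV. Of the 881 genes 682 also passed in LIV, where 2210 of the 13574 genes tested passed. The comparison with pgWAT reuses the LIV libraries of that test, so an overlap is expected and does not show a response particular to LIV. No fit of this comparison with the lane is given here. Pcgf2 had 1.03 in LIV and -0.58 in pgWAT (difference 1.60, adjusted p = 0.0234), Krcc1 had -0.68 and 0.44 (difference -1.17), and Dnajb9 had -0.75 and 0.17 (difference -0.92). Als2cl and Junb were named after their values were seen. Als2cl passed neither with the lane as a covariate (log2FC 1.25, adjusted p = 0.0681 in edgeR) nor within lane 1.

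The genes tested were split in 5 by the GC content of their longest transcript. Of the 2670 of highest GC 14.0% rose and 3.3% fell. Of the 2670 of lowest GC 5.02% rose and 11.0% fell, against 7.99% and 8.29% of all genes. In single libraries the mean log2 level of the highest set minus that of the lowest, against the mean of all 12, was -0.172 to 0.051 in the fed and -0.025 to 0.217 in the fasted libraries. With the trend on GC taken out of each library, a fit chosen after seeing the data, 953 genes were higher (7.02%) and 1076 lower (7.93%). In the highest set 6.85% rose and 7.53% fell, and in the lowest 6.63% rose and 8.35% fell. Of the genes called in all 12 libraries, 852 higher and 936 lower ones were called in that fit with the same direction.

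Of 743 processed pseudogenes 19.9% fell and 4.17% rose, against 8.07% and 7.92% of the 11683 protein-coding genes. Of 207 lincRNA genes 24 rose (11.6%) and 3 fell, among processed transcripts 21 rose (14.7%) and 1 fell, and among antisense genes 21 rose (8.94%) and 3 fell. With the GC trend taken out, 19.9% of the processed pseudogenes were lower and 25 higher, and of the lincRNA genes 27 were higher and 4 lower. These gene classes and the sets by GC content were not counted in the fits that allow for the lane. Pgam1-ps2, a pseudogene of phosphoglycerate mutase, fell from 19.01, 25.7 and 36.9 to 4.34, 8.87 and 19.2 (log2FC -1.37 ± 0.31), and its parent Pgam1 from 18.1, 25.8 and 27.9 to 12.4, 14.6 and 18.5 (log2FC -0.72 ± 0.13). Scp2-ps2 and Bhmt-ps1 fell (log2FC -0.99 ± 0.21 and -1.18 ± 0.23), while their parents Scp2 and Bhmt had log2FC values of -0.18 and -0.32 with adjusted p of 0.212 and 0.0867. The parents were named after the values were seen. Reads that match a parent and its copies equally were not kept by the authors, so the split of reads within such pairs is uncertain. Of these genes, none passed with the lane as a covariate, and Pgam1-ps2, Scp2-ps2 and Bhmt-ps1 passed within lane 1.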

How the data were processed

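Read counts per gene were deposited by the authors, who aligned paired reads with TopHat2 2.1.1 to GRCm38.p5 and counted unique reads with HTSeq 0.9.1 on Gencode M16. The strand option was not stated. Here, genes with at least 10 counts at the median library size in 3 of 12 libraries were kept, 13574 of 53686. TMM factors and edgeR 4.0.16's quasi-likelihood F test in R 4.3.3 compared the groups, with Benjamini-Hochberg adjustment. DESeq2 1.42.0 served as an alternative. Python 3.11.15, pandas 2.3.3 and matplotlib 3.10.9 made tables and plots. Genes were named by list membership, the largest folds and the smallest adjusted p of each direction, and those outside this rule were named after their values were seen. Some genes of the lists are not reported here. Members and lists were chosen with earlier results of these data known. Gene positions and GC content came from Gencode M21.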

Additional observations from a re-analysis of the deposited data

Results flagged for a closer look

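In 45 of 330 groups of 6 libraries, the highest or lowest library stood far from the other 5, where chance alone gives at least 1 in 20. The number after each name is the gap to the nearest library as a share of the whole range, and a library was called far beyond Dixon's 95% critical value for 6 values. Of the fed libraries, 0 h replicate 3 was far above the others in Acaca (0.632), Creld2 (0.828), Ddit3 (0.815), Dnajb9 (0.695), Gckr (0.694), Gpd1 (0.711), Hspa5 (0.795), Ighm (0.723), Lyz2 (0.647), Pdk4 (0.77), Sdf2l1 (0.885) and Snx32 (0.646). The library 0 h replicate 3 was far below the other fed ones in Cpt1a (0.647), Pck1 (0.694) and Per1 (0.679). Of the fed libraries, 2 h replicate 1 was far above the others in Cish (0.662), Cyp4a14 (0.775) and Scd1 (0.636). Among the fed libraries 2 h replicate 2 was far above the others in the total counts (0.721), Lcn2 (0.746), Mki67 (0.715), S100a9 (0.646) and Saa2 (0.782). Among the fed libraries 2 h replicate 3 was far above the others in Bhmt (0.677), Des (0.692) and H2-Ab1 (0.705). The library 2 h replicate 3 was far below the other fed ones in Lipa (0.627). Among the fasted libraries 12 h replicate 1 was far above the others in the summed muscle markers (0.629), Acta1 (0.708), Atrnl1 (0.671) and Tpm2 (0.744). Among the fasted libraries 12 h replicate 2 was far above the others in the summed Kupffer cell markers (0.782), Clec4f (0.841), Lcn2 (0.964), Orm2 (0.97), Saa1 (0.942) and Saa2 (0.987). Among the fasted libraries 12 h replicate 3 was far above the others in the percent of counts in the 10 most abundant genes (0.664). The library 12 h replicate 3 was far below the other fasted ones in Mki67 (0.869) and Tsc22d3 (0.725). Among the fasted libraries 8 h replicate 3 was far above the others in Bdh1 (0.657), Bhmt-ps1 (0.695), Cpt1a (0.79), Ctsl (0.648) and Cyp2e1 (0.641).

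Responses that differed between groups by a test of the difference were those of 12 h and 8 h (0.0368% of the genes), of the late and the daytime fast (0.906%), of LIV and iBAT (0.0328%) and of LIV and pgWAT (6.97%).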

How the results depend on the processing

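Shares of the 13574 genes are given in the order higher, lower, higher DEGs and lower DEGs, which were 7.99, 8.29, 0.774 and 0.39% with all 12 libraries. They were 1.03, 0.25, 0.427 and 0.0884% with the lane as a covariate, 1.86, 1.07, 0.597 and 0.199% within lane 1, 2.97, 3.01, 0.376 and 0.206% with the 0 h libraries alone as fed, 0.766, 0.346, 0.206 and 0.0589% with the 8 h libraries alone as fasted and 8.16, 8.93, 1.34 and 1.14% with the 12 h libraries alone as fasted. With the GC trend taken out and a replicate block they were 4.94, 5.25, 0.471 and 0.236%. With 1 library left out at a time they ran over 4.16 to 10.7%, 4.19 to 11.1%, 0.324 to 1.25% and 0.133 to 0.803%. Under DESeq2, other size factors, no filter, the replicate block, means of 4 time points, all 18 LIV libraries, GC offsets alone and the fit without the 3 libraries of highest muscle sums, each share stayed within 1.5 times. No called gene changed direction with a call in both fits. Replicate numbers do not pair LIV libraries of different times. Those of the same number had mean correlations of -0.034, -0.054 and -0.091 between times, against 0.028 for different numbers. Between 12 h and 8 h DESeq2 called 107 genes and the block 1, between 2 h and 0 h DESeq2 called 221, and between late and daytime fast DESeq2 called 626, the block 22 and fits without 1 library 3 to 284.

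Of the genes named, 87 passed, 72 of these with any 1 library left out, 26 with the lane as a covariate, 39 within lane 1, 27 with the 8 h libraries alone as fasted, 62 with the 0 h libraries alone as fed, 72 with the 12 h libraries alone as fasted and 18 in every fit. Not called with the 0 h libraries alone were Als2cl, Btg2, Cd74, Cgn, Cps1, Des, Dgat1, Dgat2, Ftcd, Gbp2, Gckr, H2-Aa, Mapk15, Nr1h4, Pgam1-ps2, Phkg2, Plac8, Pxylp1, Scp2-ps2, Snx32, Stat5a, Tat, Tpm2, Uroc1 and Vsig4, and not called with the 12 h libraries alone were Agxt, Als2cl, Btg2, Cela1, Cfd, Cyp51, Fga, Fgg, Gckr, H2-Aa, Lyz2, Pdia6, Pxylp1, Uroc1 and Vsig4. With the GC trend taken out Des, Ftcd, Tfeb and Uroc1 were not called, and without the 3 libraries of highest muscle sums Cela1, Des, Dgat2, Dnajb9, Fga, Fgg, Lyz2, Phkg2 and Tat were not. Des had a log2FC of -0.11 with the lane as a covariate and -0.111 within lane 1, with neither called, and Cyp2c55 had -0.902 (adjusted p = 0.0426) with the 12 h libraries alone. The cause was not tested. Sign changes of genes short of the threshold in both fits were not read as a direction. Groups of 6 and a lane that follows the fast limit what can be told apart, and 3 counts equalled 0.241 to 0.409 CPM.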

Other observations

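Some gene families, put together after their values were seen and not tested as sets, are given beside the 7.99% higher and 8.29% lower over all genes. Of 54 genes of vesicle coats, signal recognition, translocon and signal peptidase 21 fell (38.9%), with a median log2FC of -0.22. Of 40 complement and coagulation genes 14 fell (35%) and 1 rose (2.5%), with a median log2FC of -0.25, and of 17 Serpina genes, some of which share reads with near-identical copies, 8 fell (47.1%). Of 8 Cct genes of the cytosolic chaperonin 5 fell (62.5%), and of 56 Eif genes of translation initiation 11 fell (19.6%) and 1 rose (1.79%). Of 281 Zfp genes of zinc finger proteins 33 rose (11.7%) and 2 fell (0.712%), with a median log2FC of 0.23, and the 4 Clk genes of splicing kinases rose. Ribosomal protein genes had 6 of 83 higher and 6 lower, 7.23% each. With the trend on GC content taken out, 14 of the secretory, 12 of the complement, 7 of the Serpina, 3 of the Cct and 10 of the Eif genes were lower, and 35 of the Zfp and 3 of the Clk genes were higher. These families were not counted in the fits that allow for the lane. With the lane as a covariate 140 genes were higher and 34 lower over all genes.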
